A study of Saccharomyces cerevisiae with 6 samples.

Results

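The genes described here encode the core of the Ras, cyclic AMP (cAMP) and protein kinase A pathway of the budding yeast Saccharomyces cerevisiae. There are 9 of them among the 6256 genes on the array, and they were taken by standard gene name, each through the probe that carries its systematic name. They comprise 2 activators (RAS2 and CYR1), 5 brakes (IRA1, IRA2, PDE1, PDE2 and BCY1) and 2 catalytic subunit genes (TPK2 and TPK3). All 9 passed the filter on dim probes and had 1 probe each, so no gene has probes that could disagree.

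In this pathway the small GTPase Ras, in its GTP-bound form, activates adenylate cyclase, which makes cAMP. Ira proteins return Ras to its inactive form, phosphodiesterases break cAMP down, and the regulatory subunit Bcy1 holds the catalytic subunits inactive until cAMP binds to it. Active protein kinase A is known in yeast for favouring growth and fermentation on glucose and for holding back stress defence, storage carbohydrates and entry into stationary phase. The arrays measured RNA only, so neither cAMP nor kinase activity was measured.

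The study compared BH13, a mutant strain selected for better resistance to coniferyl aldehyde (a phenolic inhibitor derived from lignin), with its reference strain, called REF here. Both were grown without treatment in yeast minimal medium at 30 °C and 150 rpm, and RNA was taken in log phase at an OD600 of about 1.0. A separate Agilent one-colour array was used for each of the 3 samples per strain. The labels give no parental genotype, mating type or ploidy, BH13 is a single mutant strain, and whether the 3 samples came from separate cultures is not said. The p-values therefore rest on sample-to-sample spread that may be technical in part.

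The 2 strains did not match in their markers. All 7 a-cell markers and 9 of 10 haploid-specific markers were lower in BH13. The remaining haploid-specific marker, FUS1, was higher, by 0.40 on the log2 scale. Over all genes tested, 43.3% were lower and 38% higher at the threshold defined below. The summed signal of the a-cell list was 0.276 to 0.285 times the array's 75th percentile on BH13 arrays and 7.53 to 7.86 times on REF arrays, and MFA2 and AGA2 did not rise well above background in BH13 at all. For the haploid list the sums were 0.977 to 1.03 and 8.10 to 8.33, with HO never well above background in BH13. Of 5 alpha-cell markers, 4 were tested, and 2 were higher and 1 lower, with MF(ALPHA)1, among the higher, dim in both strains at 45.6 to 69.0 units of processed signal in BH13 and 23.2 to 63.0 in REF. The sums of the whole alpha-cell list overlapped, at 0.158 to 0.194 in BH13 and 0.174 to 0.213 in REF, and 1 marker was never well above background in BH13. All 10 ribosome assembly genes listed as growth markers were lower in BH13 (sums of 10.9 to 11.8 against 55.0 to 61.3), and all 10 markers of cells leaving log phase were higher (34.2 to 39.0 against 1.81 to 2.64). What part these differences have in the values below was not tested.

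All 3 BH13 arrays were on a single slide and were scanned on the same day, while REF used 2 further slides that were scanned on a different day. An effect of strain and an effect of slide or scanning day cannot be told apart. No gene spot was saturated, and 91.4% to 93.8% of an array's gene spots were well above background. The background itself differed with strain. Negative control spots read 58.2 to 63.5 units on BH13 arrays and 27.4 to 31.9 on REF arrays before local background subtraction, and -6.71 to -3.72 and -3.30 to -2.64 after it. Values of dim genes are the ones it touches most, and its part in them was not tested. Values below are log2 signal relative to each array's 75th percentile. Differences are BH13 minus REF on the log2 scale ± limma's standard error (n = 3 arrays in each strain), and "called" means a Benjamini-Hochberg adjusted p under 0.05 over all 5890 genes tested. In RNA from a whole culture, fewer cells expressing a gene and less RNA per cell cannot be told apart.

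Members of every role went both ways. In BH13, 5 genes were called higher (CYR1, IRA1, IRA2, BCY1 and TPK2), 3 were called lower (RAS2, PDE2 and TPK3), and PDE1 was not called. The 8 called of 9 (88.9%) compare with 81.3% of all genes tested, of which 38% were called higher and 43.3% lower, so being called is near the background of this comparison. The 3 values of each strain lay wholly apart for 8 of the 9 genes, against 83.7% of all genes. TPK2 alone among the 9 was called with a difference of at least 2-fold, against 35.5% of all genes in either direction and 17.9% in its own. With cyclic loess normalization CYR1 passed 2-fold too, at 1.04 (limma adjusted p = 1.10e-05). The median absolute difference was 0.64 over the 9 genes and 0.69 over all genes tested. Signed medians were 0.19 for the activators, 0.35 for the brakes and 0.41 for the catalytic subunits, where the median over all genes was -0.07. The medians of the 2-gene groups each lie between a gene that rose and a gene that fell.

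**Figure D1:**
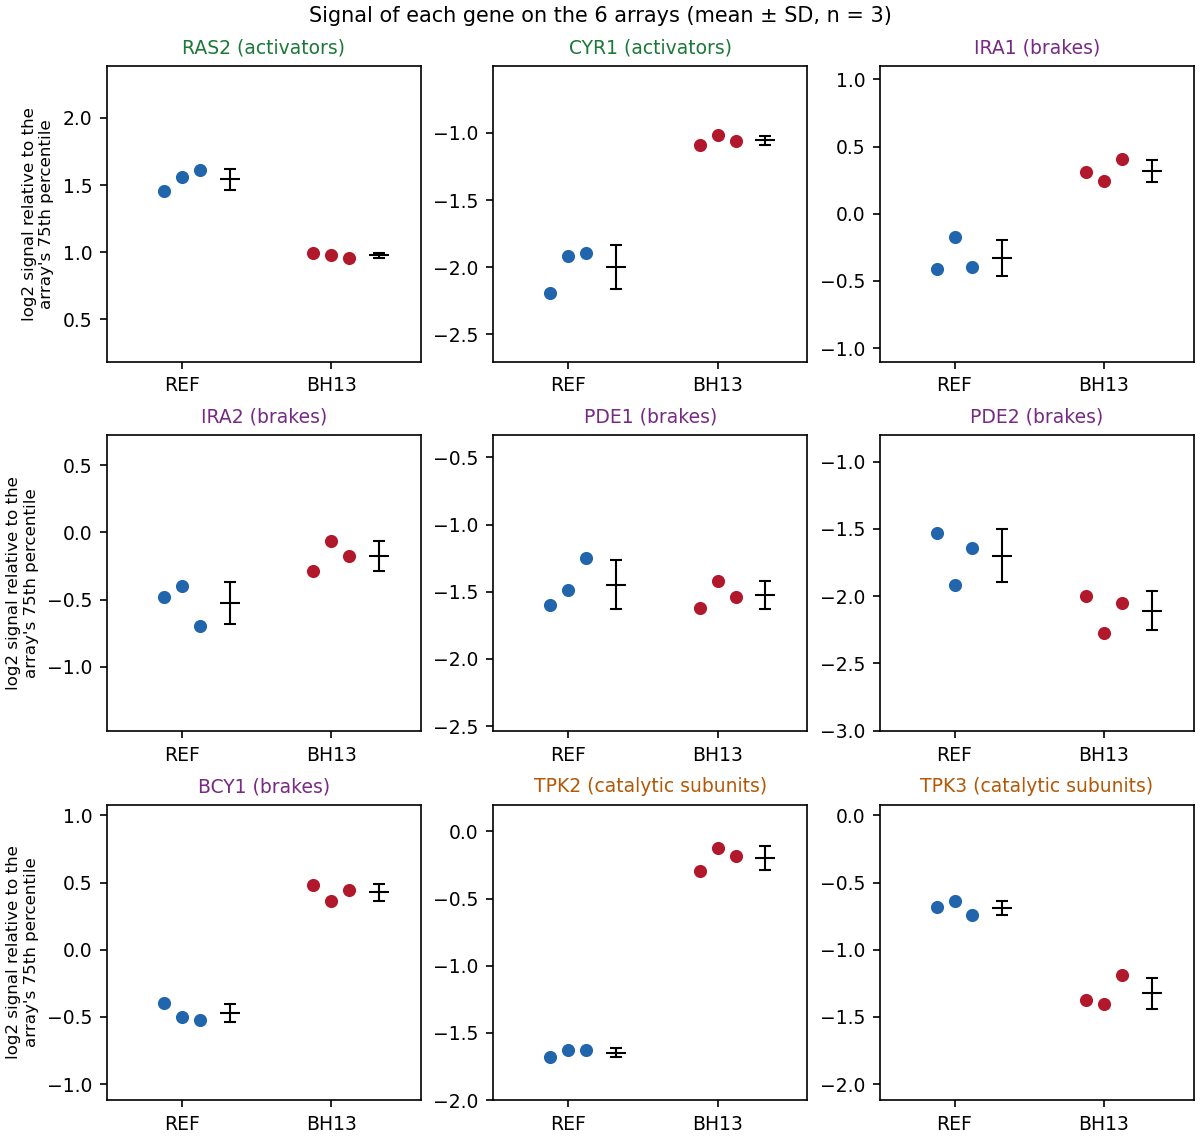
Log2 signal of the 9 genes relative to each array's 75th percentile, with 1 panel per gene, 1 point per array (REF blue, BH13 red) and the mean ± SD (n = 3) beside the points. Every panel spans the same number of log2 units, and the strains overlap for PDE1 only.

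Among the activators, RAS2 fell and CYR1 rose. RAS2 encodes a Ras GTPase that stimulates adenylate cyclase. Its log2 values were 0.99, 0.98 and 0.96 on the BH13 arrays and 1.46, 1.56 and 1.61 on the REF arrays. The BH13 arrays lay close together and all below the REF arrays, and RAS2 fell by 0.57 ± 0.07, which is 1.48-fold (limma adjusted p = 0.000120). CYR1 encodes adenylate cyclase itself. Its values were -1.09, -1.02 and -1.06 in BH13 and -2.19, -1.92 and -1.89 in REF. REF replicate 1 was the lowest of the 6 arrays, and every BH13 array lay above every REF array. CYR1 rose by 0.94 ± 0.10, or 1.92-fold (limma adjusted p = 2.42e-05), with a 95% interval of 0.72 to 1.16.

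Both genes for the brakes on Ras rose. IRA1 and IRA2 encode large GTPase-activating proteins that switch Ras off. The values of IRA1 were 0.31, 0.24 and 0.41 in BH13 and -0.41, -0.17 and -0.40 in REF, without overlap. IRA1 rose by 0.65 ± 0.09, or 1.57-fold (limma adjusted p = 0.000204). The values of IRA2 were -0.29, -0.06 and -0.17 in BH13 and -0.48, -0.40 and -0.70 in REF. The groups did not overlap, but the lowest BH13 array and the highest REF array lay closer together than the lowest and highest array of either strain. IRA2 rose by 0.35 ± 0.10, or 1.28-fold (limma adjusted p = 0.0114). REF replicate 3, the array on a slide of its own, was the lowest for IRA2, and without it the difference was 0.27 (limma adjusted p = 0.0288).

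Of the phosphodiesterase genes, PDE2 fell and PDE1 was not called. PDE1 encodes the low-affinity cAMP phosphodiesterase. Its values were -1.62, -1.42 and -1.54 in BH13 and -1.60, -1.49 and -1.25 in REF. The groups overlapped, and the difference of -0.08 ± 0.11 was not called (limma adjusted p = 0.499). Its 95% interval of -0.33 to 0.17 leaves room for a small change either way, and the sign turned with cyclic loess normalization and without REF replicate 3. PDE2 encodes the high-affinity phosphodiesterase, and its values were -2.00, -2.27 and -2.05 in BH13 and -1.53, -1.92 and -1.64 in REF. The lowest REF array, replicate 2, lay just above the highest BH13 array. PDE2 fell by 0.41 ± 0.12, or 1.33-fold (limma adjusted p = 0.0119). Its call ended with normexp background correction, at -0.28 (limma adjusted p = 0.0503), and with cyclic loess normalization, at -0.29 (limma adjusted p = 0.05004).

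BCY1, the gene for the regulatory subunit that inhibits the kinase, rose the most among the brakes. Its values were 0.48, 0.36 and 0.44 in BH13 and -0.39, -0.50 and -0.52 in REF, so the strains were separated by several times the spread within either. BCY1 rose by 0.90 ± 0.08, or 1.87-fold (limma adjusted p = 8.22e-06), with a 95% interval of 0.72 to 1.08. Of the 5 brakes, 3 were thus called higher and 1 lower, a share called of 80% where all genes had 81.3%.

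The catalytic subunit genes moved in opposite directions. TPK2 encodes the subunit known for promoting filamentous growth. Its values were -0.29, -0.12 and -0.18 in BH13 and -1.68, -1.63 and -1.63 in REF. TPK2 rose by 1.45 ± 0.08, or 2.73-fold (limma adjusted p = 5.58e-07), and 20.8% of all genes tested had a larger absolute difference. TPK3 encodes a further catalytic subunit of the same kinase. Its values were -1.38, -1.40 and -1.19 in BH13 and -0.68, -0.64 and -0.74 in REF. TPK3 fell by 0.64 ± 0.08, or 1.55-fold (limma adjusted p = 0.000133). Neither gene had overlapping groups. TPK2 was also the only one of the 9 in the authors' deposited table of 1325 probes, where limma on those values gave 1.46 (limma adjusted p = 3.32e-08). That table comes from the same arrays, so its value is not independent of the one above. Its p was adjusted over the 1325 probes only, and how they were chosen is not given.

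**Figure D2:**
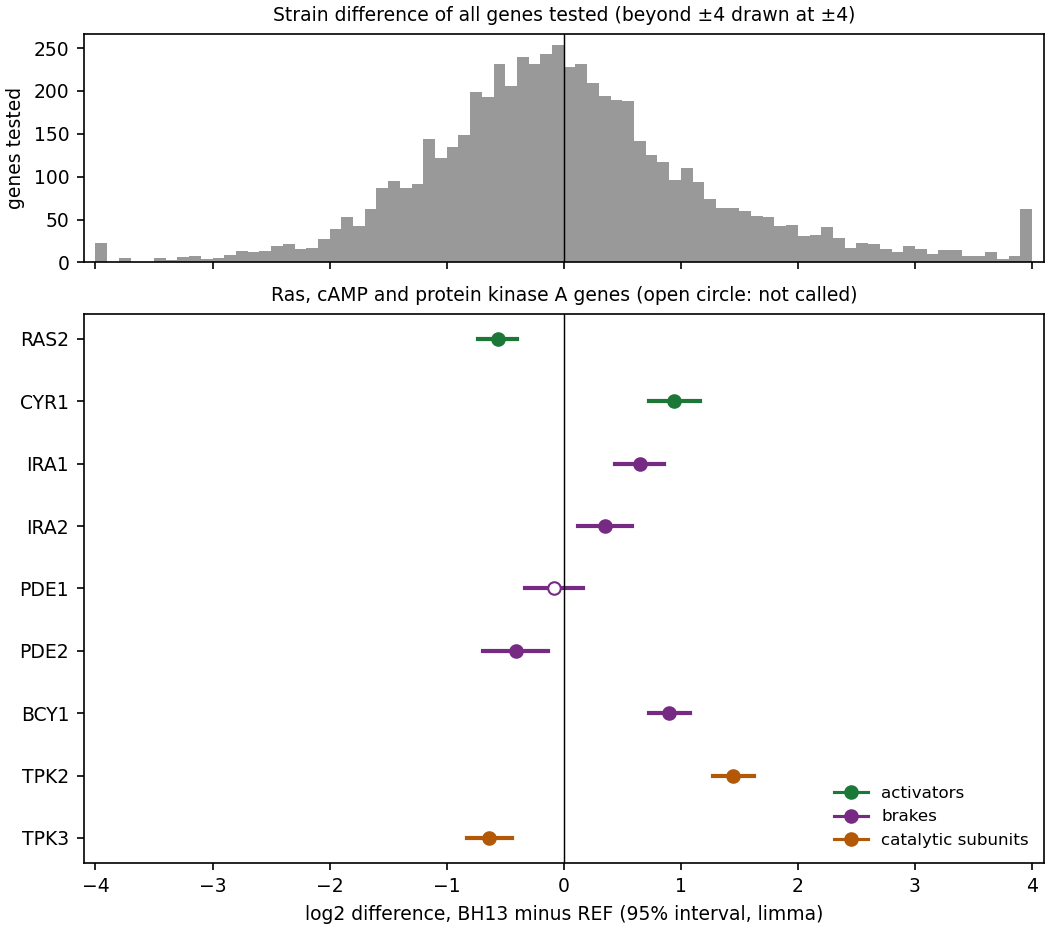
Strain differences (log2, BH13 minus REF) of all 5890 genes tested as a histogram (upper panel, genes per bin) and of the 9 genes with 95% intervals from limma (lower panel, coloured by role). The interval of PDE1, drawn as an open circle, spans 0, and TPK2 at 1.45 lies farthest from 0.

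To ask whether genes of like function responded differently, the log2 ratio of each of 3 related gene pairs was taken on every array, and its change between strains was compared. The ratio of TPK3 to TPK2 fell by 2.08 in BH13, a 4.24-fold change, where the SD of the ratio was 0.14 over the BH13 arrays and 0.06 over the REF arrays. The exact two-sided permutation p was 0.1, the smallest that 3 arrays against 3 can give, and 0.15 after adjustment over the 3 pairs. The ratio of IRA2 to IRA1 fell by 0.29 with an SD of 0.16 in BH13 and 0.12 in REF, also without overlap (exact permutation p = 0.1, adjusted p = 0.15). The ratio of PDE2 to PDE1 fell by 0.33, and the groups overlapped with SDs of 0.25 and 0.28 (exact permutation p = 0.3, adjusted p = 0.3). This permutation test could not pass a threshold of 0.05 for any pair with 3 arrays a strain. The TPK genes resemble one another, as do the IRA genes, and whether a probe also reads a relative was not tested.

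The duplicate spots show the error of single spots, not that of labelling, hybridisation or scaling, which they share. Each probe was spotted 2 times per array, and the largest gap between the 2 spots over all 9 genes and 6 arrays was 0.29 on the log2 scale, for PDE2 on REF replicate 1. IRA2 had the smallest largest gap, at 0.06. All spots of the 9 genes were well above background on all 6 arrays, none was flagged as an outlier, and the lowest processed signal was 474, for PDE2 on BH13 replicate 2.

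TPK2 was not alone in its pattern over the arrays. Of 5156 other named genes tested, 420 had a Pearson r above 0.99 with TPK2 over the 6 arrays, and the 3 highest were ROY1 (r = 0.9995), ITT1 (r = 0.9993) and YPS6 (r = 0.9992). With 2 strains of 3 arrays, such an r mostly follows the step between the strains and says nothing of its size. ROY1 differed by 1.64, ITT1 by 0.57 and YPS6 by 2.96.

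Beyond the 9 genes, a list of 39 other genes of the pathway was measured. Of these, 13 were called higher in BH13, 15 lower and 11 were not called, a share called of 71.8% where all genes had 81.3%. At least 2-fold differences were called for 6 that were higher and 7 that were lower, where 17.9% of all genes were that much higher and 17.5% that much lower. Among 7 further core genes, 2 were higher and 2 lower, a share called of 57.1%. RAS1, the second Ras gene, had values of -2.95, -2.93 and -3.11 in BH13 and -0.0018, 0.07 and 0.04 in REF, far apart and without overlap. RAS1 fell by 3.03 ± 0.08, or 8.19-fold (limma adjusted p = 3.50e-08), and so in the same direction as RAS2. TFS1, which encodes a carboxypeptidase Y inhibitor that also binds and inhibits Ira2, rose by 3.17 ± 0.16 (limma adjusted p = 4.79e-07). SRV2, which encodes a protein bound to adenylate cyclase, rose by 0.46 ± 0.09 (limma adjusted p = 0.00139). CDC25, the gene for the exchange factor that loads Ras with GTP, had a difference of 0.01 ± 0.09 and was not called (limma adjusted p = 0.902), with a 95% interval of -0.19 to 0.22 and a sign that turned with normexp background correction.

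In the branch that senses glucose through the receptor Gpr1, 2 of 6 genes were higher and 2 lower, a share called of 66.7% against 81.3% of all genes. RGS2, whose product switches off the G protein alpha subunit Gpa2, fell by 3.74 ± 0.11, or 13.4-fold (limma adjusted p = 4.62e-08). The difference of RGS2 was -3.21 with normexp background correction, and its processed signal in BH13 was only 108 to 141 units. GPR1, the receptor gene, fell by 1.03 ± 0.08 (limma adjusted p = 4.65e-06), which only just passes 2-fold. The fall of GPR1 was under 2-fold with median, quantile and cyclic loess scaling and with normexp background correction, where it was 0.78. Its processed signal in BH13 was 130 to 190 units. PLC1, the phospholipase C gene, rose by 0.33 ± 0.10 (limma adjusted p = 0.0127), a call that ended without BH13 replicate 3 (0.29, limma adjusted p = 0.0505).

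A list of 7 genes covers the lipid modification of proteins such as Ras and the processing steps tied to it. Of these, 6 were called lower and 1 higher, with a median of -0.59, where 43.3% of all genes were called lower and 38% higher. ERF2, part of the enzyme that adds palmitate to Ras2, fell by 1.86 ± 0.07 (limma adjusted p = 1.38e-07). STE14, the methyltransferase that acts on farnesylated proteins, fell by 1.33 ± 0.14 (limma adjusted p = 2.91e-05), and RAM2, the farnesyltransferase alpha subunit gene, fell by 0.72 ± 0.08 (limma adjusted p = 3.96e-05). With normexp background correction the difference was -1.44 for ERF2 and -1.06 for STE14. Processed signals in BH13 were 139 to 223 units for ERF2 and 187 to 287 for STE14. The products of STE14 and RAM2 also process the mating pheromone a-factor, whose genes MFA1 and MFA2 are among the a-cell markers that were lower in BH13. STE24, a protease gene whose product processes a-factor, was the gene on this list that was called higher, at 0.43 ± 0.10 (limma adjusted p = 0.00277).

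Of 19 genes listed as targets and effectors of the kinase, 8 were called higher and 5 lower with a median of -0.0017. Of all genes, 38% were called higher and 43.3% lower. The list mixes products that the kinase activates with ones it restrains, and includes SCH9, whose product acts beside the pathway. Its median therefore gives no direction of kinase activity. SFL1, a repressor of flocculation genes that Tpk2 acts on, fell by 2.04 ± 0.18 (limma adjusted p = 1.09e-05), but by 0.89 with normexp background correction. All its spots were well above background, but its processed signal in BH13 was only 23.8 to 40.7 units, against 121 to 317 in REF. PFK26, which makes the glycolytic activator fructose 2,6-bisphosphate, rose by 1.94 ± 0.07 (limma adjusted p = 9.37e-08). FBP1, the gluconeogenic fructose-1,6-bisphosphatase gene, rose by 1.77 ± 0.27 (limma adjusted p = 0.000305). The rise of FBP1 was 1.27 with normexp background correction and 2.12 without REF replicate 3. Its processed signal in REF was 58.6 to 119 units. RIM15, MSN2 and MSN4 encode a kinase and a pair of transcription factors of the stress response that protein kinase A restrains. RIM15 rose by 0.44 ± 0.08 (limma adjusted p = 0.00114), MSN4 by 0.20 ± 0.07 (limma adjusted p = 0.0354), and MSN2 had a difference of 0.16 ± 0.10 that was not called (limma adjusted p = 0.167). The call for MSN4 held under 11 of 17 alternatives. MSN2 was called with normexp background correction, at 0.23 (limma adjusted p = 0.0398), and was at 0.058 without REF replicate 3.

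**Figure D3:**
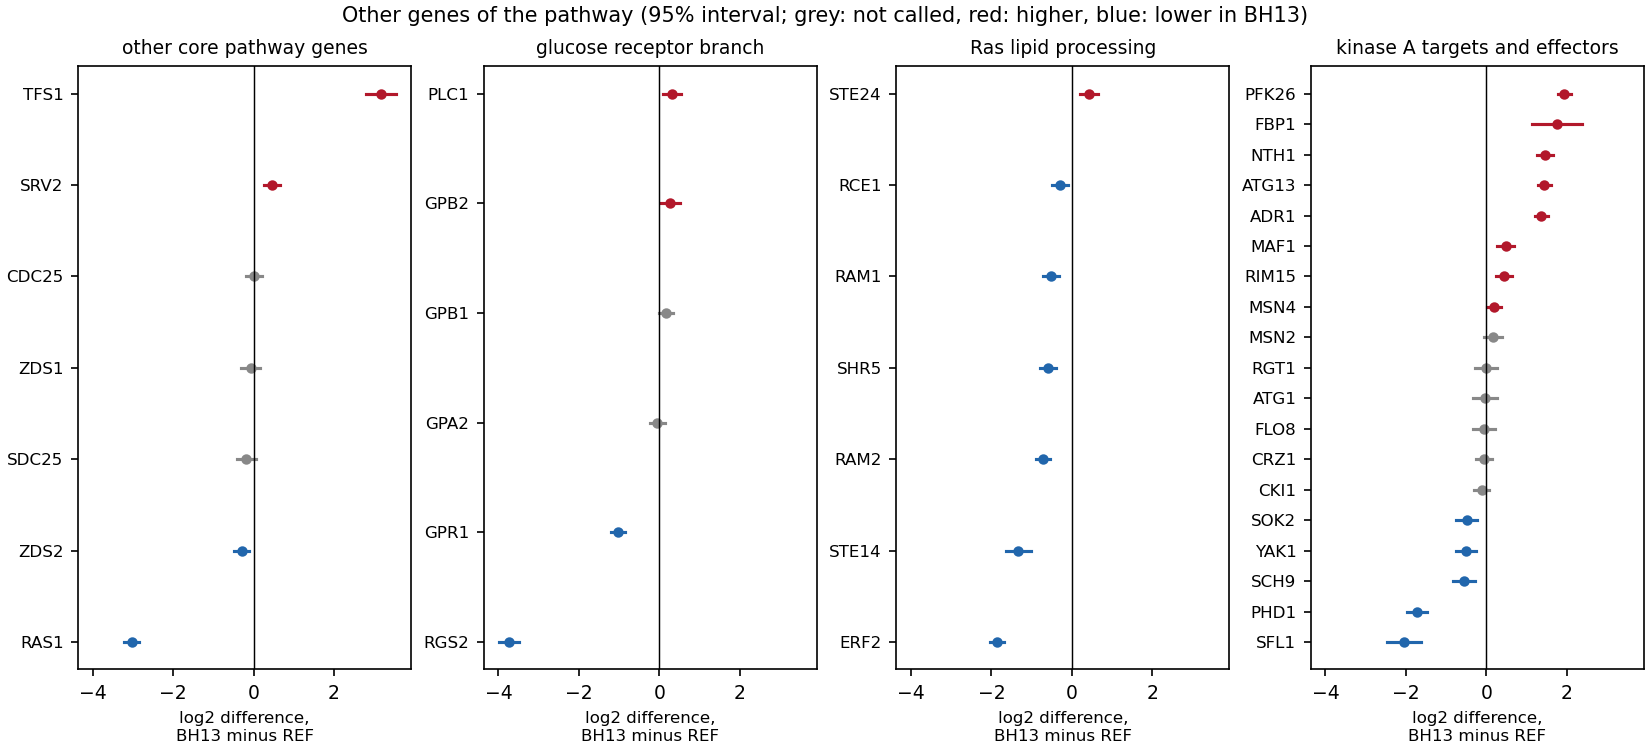
Strain differences (log2, BH13 minus REF) of 39 other pathway genes with 95% intervals from limma, in 4 panels by list. Red genes were called higher, blue lower and grey not called, and RGS2 at -3.74 and TFS1 at 3.17 lie farthest from 0 on either side.

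**Figure D4:**
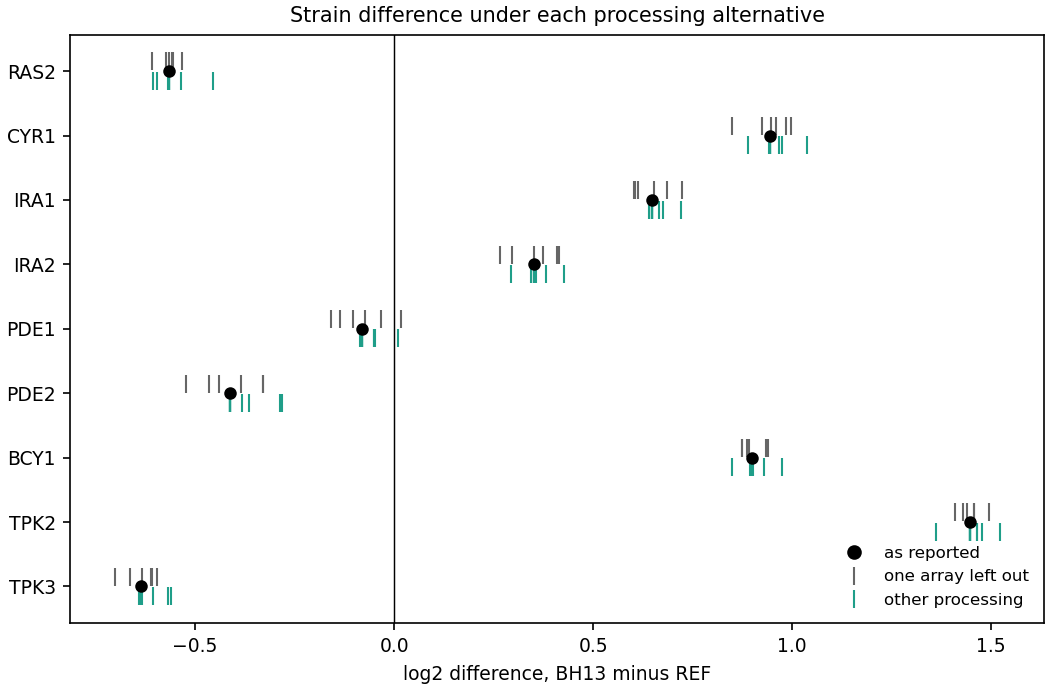
Log2 difference (BH13 minus REF) of the 9 genes as reported (black points), with 1 array left out (grey ticks) and under other processing (green ticks). Only the values of PDE1 lie on both sides of 0.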

How the data were processed

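Cy3-labelled RNA of 6 samples was hybridised to Agilent yeast arrays. The deposited scanner files hold spot intensity from which background had been subtracted, by Agilent's Feature Extraction software (version 10.7.3.1 in the file headers, 9.1 in the submitters' processing notes). The deposited table of processed values holds log2 values centred per probe for 1325 probes, whose making is not given in the sources used here. Its strain differences matched the scanner values in sign for all 1324 probes compared, with a slope of 1.00, so its scale, centring and direction are known. In replicate order the medians of its columns were 0.56, 0.60 and 0.52 (REF) and -0.58, -0.53 and -0.55 (BH13).

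Outlier and control spots were left out, the 2 spots of a probe averaged as log2 signal, and each array's 75th percentile (2301 to 4905 units of intensity) subtracted. Probes well above background on at least 3 arrays were kept (5890 of 6256). Names came from RefSeq R64, which matched 5756 probes and all 9 genes. The strain test was limma 3.58.1 (lmFit, then eBayes, two-sided) under R 4.3.3. The script was tested on simulated data. Figures used matplotlib 3.10.9.

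The genes, lists and tests were chosen with earlier results of these data known. The text names all 9 genes, the 3 largest called differences of each other pathway list, 5 fixed genes (RAS1, CDC25, MSN2, MSN4, RIM15) and the 3 genes most like the member with the largest difference. The marker genes named, STE24 and those under other observations were picked after their values were seen, and 1 result is not reported here. Lists were described by counts and medians and not tested. Alternatives were normexp (offset 50, on median signals, as no mean signal column was used), median, quantile and cyclic loess scaling, no filter, a filter requiring all 6 arrays, keeping outlier spots, dropping uneven-background spots, robust variance with an intensity trend, the authors' table, a replicate block, a random slide block, and leaving out each array. The number of arrays limits the precision.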

Additional observations from a re-analysis of the deposited data

How the results depend on the processing

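CYR1, IRA1, IRA2, BCY1, RAS2 and TPK3 kept their direction and their call under all 17 alternatives. TPK2 did so under all 18, counting the authors' table, which comes from the same arrays. For each gene 6 of these left the difference itself identical (the filters, spot flags, variance trend and replicate block), so only the other 11, or 12 for TPK2, could have turned a direction. PDE2 kept its direction under 17 and its call under 15, the exceptions being normexp background correction (-0.28, limma adjusted p = 0.0503) and cyclic loess normalization (-0.29, limma adjusted p = 0.05004). PDE1 was never called, and its difference turned to 0.0090 with cyclic loess normalization and ranged from -0.16 to 0.017 with 1 array left out. CDC25, also never called, turned to -0.036 with normexp and ranged from -0.031 to 0.075 with 1 array left out. The fall of the TPK3 to TPK2 ratio was -1.93 with normexp, outside the spread between arrays, and the cause was not tested. Of all values recomputed for the main comparisons, 287 of 292 kept their direction and side of the threshold or stayed within the spread. Some of these could not have changed. Median centring, for example, leaves the ratio of a gene pair on an array as it was.

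Whether the replicate numbers pair the samples is not settled by these values. Deviations of same-numbered arrays from their strain means correlated at 0.13, 0.24 and 0.0027. Replicates 1 and 2 correlated best with their own number, and replicate 3 did not. With the replicate number as a block, 2269 genes were higher and 2576 lower, and the 9 genes gave 5 higher and 3 lower as without it. The slide as a random block gave 2199 and 2511. No slide held both strains, so this block cannot remove a slide effect from the strain difference. Scaling choices moved the median of all genes to between -0.08 and 0.01. All 9 genes were bright enough that the filter on dim probes did not change their values.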

Other observations

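Other genes on the list of targets and effectors went both ways, and these were picked after their values were seen. NTH1, a neutral trehalase that the kinase activates, rose by 1.47 ± 0.09 (limma adjusted p = 1.04e-06), ATG13, an autophagy regulator that the kinase phosphorylates, by 1.44 ± 0.07 (limma adjusted p = 3.02e-07), and ADR1, an activator of genes for growth without glucose, by 1.37 ± 0.07 (limma adjusted p = 5.83e-07). PHD1, a transcription factor of filamentous growth, fell by 1.73 ± 0.11 (limma adjusted p = 1.60e-06). The kinase gene YAK1, which acts against the pathway, fell by 0.51 ± 0.11 (limma adjusted p = 0.00248), and SCH9, a nutrient kinase gene that acts beside it, fell by 0.55 ± 0.12 (limma adjusted p = 0.00241). ATG1, the partner kinase gene of ATG13, had a difference of -0.03 ± 0.13 and was not called (limma adjusted p = 0.830).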
